A study of Bos taurus and Bubalus bubalis with 9 samples.

Results

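Zinc finger protein genes that give rise to circular RNAs (circRNAs) were examined in muscle of Chinese buffalo and cattle and in adipose tissue of the cattle. The members were taken by name, as every row of the buffalo and the cattle circRNA table whose host gene symbol begins with ZNF, ZFP, ZBTB, ZC3H, ZFHX, ZMYM, ZMYND, ZKSCAN or ZSCAN, without ZNF609. This gave 101 hosts of 5280 in both tables, of which 53 are in the buffalo table, 94 in the cattle table and 46 in each. A label that pairs ZFP2 with ZNF454 was kept as a host of its own. In the libraries analysed here, 98 of the 101 hosts had at least 1 read, spread over 280 of 20659 back-splice junctions, while ZBTB11, ZNF211 and ZNF571 had none. No host carried the prefix ZKSCAN or ZSCAN.

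The 9 libraries came from longissimus dorsi muscle of 3 Xinyang buffalo, labelled low IMF (intramuscular fat), and from longissimus dorsi muscle and back subcutaneous fat of 3 Nanyang cattle. All animals were castrated at 6 months and slaughtered at 30 months of age, after weaning at 3 months and fattening from 18 months on, under like feeding. The 2 breeds were kept on different farms, so species, breed and farm cannot be told apart. The labels give replicate numbers and do not say which muscle and adipose library belong to the same animal, so p-values measure the spread between libraries. Buffalo adipose tissue was not analysed here.

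Zinc finger proteins hold a zinc ion in short folds that grip DNA, RNA or other proteins. Most ZNF and ZFP genes encode C2H2 proteins, many with a KRAB domain that silences transcription, ZBTB proteins join such fingers to a BTB domain for pairing, CCCH proteins (ZC3H) mostly bind RNA, and MYM and MYND fingers contact other proteins on chromatin. A circRNA forms when the spliceosome joins the end of an exon back to the start of an earlier exon, or where a long exon closes on itself. The read across that back-splice junction is what the tables count. Several zinc finger genes matter in these tissues: ZNF423 and ZNF521 are known to promote and to restrain adipocyte formation, ZNF638 takes part in adipocyte differentiation, and ZBTB16 (PLZF) is a transcription factor of stem cells that is also expressed in muscle.

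Values are RPM (reads across a junction, scaled to a fixed library size), which are not divided by the length of the circRNA. Which reads make up that library size is not given in the sources used here, so RPM values and RPM folds between the species rest on totals that could not be checked. Reads were counted by taking the smallest step between values, 0.0152 to 0.028 RPM, as 1 read. The libraries held 4472 to 6122 junction reads in buffalo muscle and 15440 to 27141 in cattle muscle, against 12042 to 21053 in cattle adipose tissue. Tissue labels were checked with circRNAs of marker genes. The 11 hosts among 15 skeletal muscle fibre genes summed to 24.3 to 32.8 RPM in cattle muscle, 11.6 to 13.6 RPM in buffalo muscle and at most 0.0269 RPM in cattle adipose tissue. As a share of junction reads the order of the muscles was the opposite, with 14.1% to 16.2% in buffalo muscle and 5.10% to 5.94% in cattle muscle. The 8 hosts among 13 adipocyte genes summed to 1.03 to 2.04 RPM in cattle adipose tissue, 0.0794 to 0.237 RPM in cattle muscle and at most 0.0628 RPM in buffalo muscle. Few genes carried these sums. NEB and MYBPC1 had means of 19.4 and 9.5 RPM in cattle muscle, and ACACA, PPARG and GPAM of 0.594, 0.549 and 0.239 RPM in cattle adipose tissue. LPL went the other way, with 0.0325 RPM in cattle muscle and 0.018 RPM in cattle adipose tissue, and CIDEC had no cattle read. In bulk tissue, fewer cells of a type and less RNA per cell cannot be told apart.

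Zinc finger hosts took a similar small share of the circRNA reads in every group. They held 2.11% ± 0.195 of the junction reads in buffalo muscle and 1.84% ± 0.188 in cattle muscle, with 1.91% ± 0.201 in cattle adipose tissue (SD, n = 3 each). The lowest library was at 1.67% and the highest at 2.33%, and the ranges of the groups overlapped. In RPM, the sum was 1.76 ± 0.208 in buffalo muscle and 10.3 ± 3.2 in cattle muscle, beside 8.18 ± 3.43 in cattle adipose tissue. The sum of all junctions was also lower in buffalo muscle, at 83.7 ± 11.2 RPM against 555 ± 127 and 419 ± 129 RPM in the cattle tissues. The buffalo reads had been aligned to the cattle genome and the tables made separately, and the part of these steps in the gap was not tested.

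**Figure D1:**
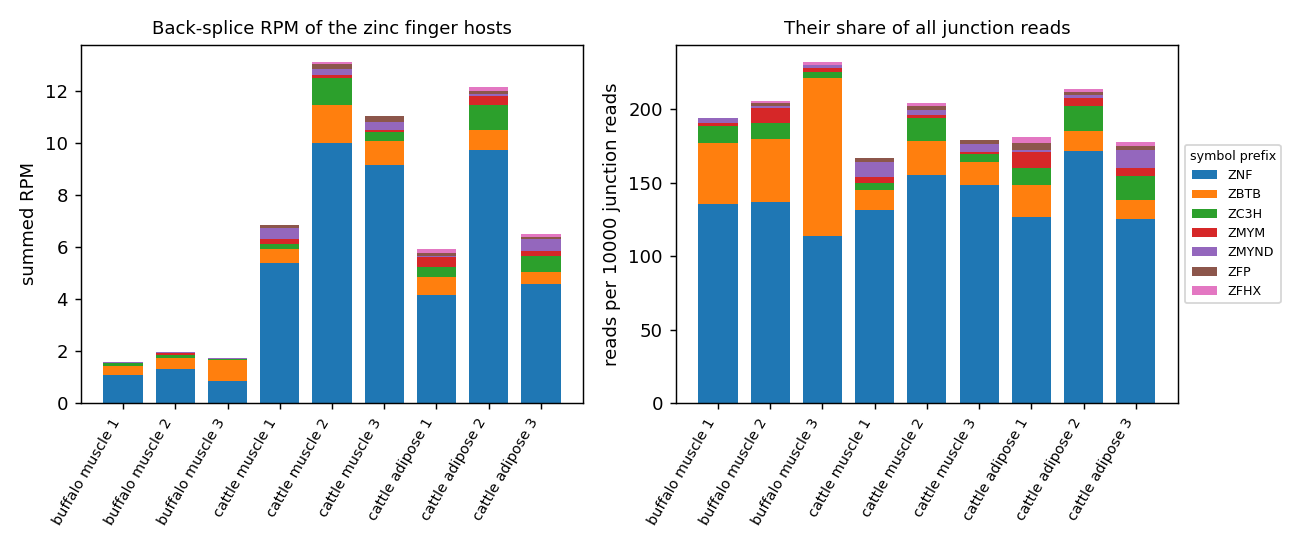
Summed RPM (left) and reads per 10000 junction reads (right) of the zinc finger hosts in each of the 9 libraries, stacked by symbol prefix. Bars are single libraries. The RPM sums of buffalo muscle lie between 1.57 and 1.98, all below the cattle libraries, while the shares of junction reads lie close together.

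By prefix, the ZNF hosts carried most of the reads, with 129 ± 13 of every 10000 junction reads in buffalo muscle and 145 ± 12.4 in cattle muscle, compared with 142 ± 26.3 in cattle adipose tissue. The ZBTB hosts, 11 of them with a read, stood at 63.8 ± 37.7 in buffalo muscle and 17.3 ± 4.88 in cattle muscle, against 15.9 ± 4.97 in cattle adipose tissue. The buffalo libraries were at 41.5, 42.5 and 107, all above the cattle libraries, of which the highest was at 22.8. The value of 107 in replicate 3 is mostly ZBTB20, given below, without which the buffalo libraries were at 24.5, 29.4 and 20.1 and the cattle libraries at 7.77 to 18.8. In RPM the order of the means was the opposite and the groups overlapped. The ZBTB hosts summed to 0.514 ± 0.25 RPM in buffalo muscle and 0.992 ± 0.457 in cattle muscle, beside 0.641 ± 0.155 in cattle adipose tissue. The 11 ZC3H hosts held 9.08 ± 3.99, 8.62 ± 6.27 and 15 ± 2.94 of 10000 junction reads in the same order, and the ZMYM, ZMYND, ZFP and ZFHX hosts together held fewer than the ZNF hosts in every library.

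The reads were concentrated in few hosts. Of 2459 member reads in the 9 libraries, 58.1% belonged to 10 hosts, whereas 55 hosts had fewer than 10 reads and 14 had 1 read. A read in every library was found for 11 hosts (ZBTB16, ZBTB20, ZMYM4, ZMYND8, ZNF148, ZNF248, ZNF280D, ZNF292, ZNF532, ZNF638 and ZNF644), a read in all 3 groups for 30, and reads in a single group for 36.

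ZNF638, a nuclear protein that binds RNA and cytidine-rich DNA, led the members in all 3 groups. Its junctions had 29, 17 and 20 reads in buffalo muscle and 24, 83 and 58 in cattle muscle, with 17, 79 and 22 in cattle adipose tissue. This made 0.347 ± 0.0878, 1.41 ± 0.69 and 1.05 ± 0.931 RPM, and placed ZNF638 at rank 19 of 2278 hosts in buffalo muscle and 37 of 3882 in cattle muscle, beside 31 of 3705 in cattle adipose tissue. The adipose library of replicate 2 stood well above its fellows, and the cattle groups overlapped.

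ZNF280D, a C2H2 protein of which little is known, was next in the cattle tissues. It had 5, 15 and 3 reads in buffalo muscle and 36, 53 and 52 in cattle muscle, compared with 16, 28 and 30 in cattle adipose tissue, or 0.121 ± 0.1, 1.22 ± 0.253 and 0.653 ± 0.19 RPM. All cattle muscle libraries lay above all adipose libraries in RPM.

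ZNF532 and ZMYND8 belong to a chromatin complex that ZMYND8, a reader of histone marks, holds together. Reads of ZNF532 numbered 1, 3 and 1 in buffalo muscle and 16, 48 and 31 in cattle muscle, against 15, 27 and 13 in cattle adipose tissue. For ZMYND8 they were 2, 1 and 1, then 16, 7 and 11, then 2, 4 and 17. The cattle tissues overlapped for both genes, and adipose replicate 3 held most of the adipose reads of ZMYND8. ZNF592, a further protein of this complex, is named for that role after its values were seen and had 0, 0 and 1 reads in buffalo muscle and 5, 7 and 2 in cattle muscle, with 2, 0 and 3 in cattle adipose tissue. ZMYM4, with MYM-type fingers, had 1, 6 and 1 reads in buffalo muscle and 7, 3 and 2 in cattle muscle, beside 12, 8 and 5 in cattle adipose tissue, and its cattle groups overlapped.

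Among transcription factors, ZNF148 (ZBP-89), which binds GC-rich promoters, had 2, 10 and 3 reads in buffalo muscle and 10, 24 and 39 in cattle muscle, compared with 3, 14 and 11 in cattle adipose tissue. ZNF292, a large protein whose circRNA is known from endothelial cells, had a single junction with a read, chr9:63559336-63562152. Its reads were 1, 1 and 2 in buffalo muscle and 11, 31 and 19 in cattle muscle, against 9, 35 and 4 in cattle adipose tissue. The adipose libraries of ZNF292 spanned the whole range of cattle muscle and more. ZNF644, a partner of histone H3 lysine methyltransferases, stood at 11, 2 and 4 reads, then 6, 10 and 17, then 8, 6 and 12, and its mean RPM was 0.0884, 0.29 and 0.229 in that order. The groups overlapped in reads.

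ZBTB20, a BTB repressor best known from liver and brain, stood apart in 1 buffalo library. It had 9, 8 and 39 reads in buffalo muscle and 6, 11 and 13 in cattle muscle, with 9, 11 and 7 in cattle adipose tissue. All but 2 of these reads fell on the junction chr1:59432429-59434033. Buffalo replicate 3 alone held 87.2 of every 10000 junction reads there against 17 and 13.1 in the others, and the cattle libraries ranged from 3.89 to 7.47. ZBTB44, a related BTB protein, had 4, 10 and 3 reads in buffalo muscle, all on chr29:37010118-37011191, and none in cattle muscle, beside 1 read, on another junction, in cattle adipose tissue.

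Of the RNA-binding CCCH members, ZC3H13, which anchors the complex that writes N6-methyladenosine, was the most abundant in both cattle tissues. It had no read in buffalo muscle and 4, 20 and 7 in cattle muscle, compared with 5, 26 and 12 in cattle adipose tissue, over 13 junctions. The SUMO ligase ZNF451 had 1 buffalo read in all and 2, 15 and 4 reads in cattle muscle, against 0, 5 and 3 in cattle adipose tissue. ZNF512, a C2H2 protein of uncertain role, had 0, 1 and 0 reads in buffalo muscle and 7, 17 and 5 in cattle muscle, with 4, 19 and 5 in cattle adipose tissue, and ZNF236, with a long row of C2H2 fingers, had none in buffalo muscle and 4, 14 and 13 in cattle muscle, beside 9, 12 and 3 in cattle adipose tissue. In these 4 hosts the cattle tissues overlapped.

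KRAB zinc finger genes formed a further set. ZNF560 had no read in buffalo muscle and 11, 25 and 9 in cattle muscle, compared with 15, 21 and 9 in cattle adipose tissue, and 88 of its 90 reads lay on chr1:121433799-121435258. ZNF599 likewise had none in buffalo muscle and 8, 11 and 6 in cattle muscle, against 12, 17 and 6 in cattle adipose tissue, all on chr18:45731688-45733275. ZNF248 had 2, 3 and 3 reads in buffalo muscle and 8, 3 and 2 in cattle muscle, with 4, 5 and 9 in cattle adipose tissue. ZNF569, on the other hand, had 7, 8 and 1 reads in buffalo muscle and 0, 1 and 0 in cattle muscle, beside 1, 2 and 0 in cattle adipose tissue, all on chr18:47629549-47630078. KRAB genes have many near-identical relatives, and whether reads were shared between them was not tested.

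Both regulators of adipocyte formation had few reads. ZNF521 had 4, 0 and 4 reads in buffalo muscle and 1, 0 and 1 in cattle muscle, compared with 0, 0 and 2 in cattle adipose tissue. ZNF423, named for its role after its values were seen, had 0, 4 and 2 reads in buffalo muscle and 5, 7 and 1 in cattle muscle, against 5, 6 and 0 in cattle adipose tissue. A difference between groups was not detectable at this depth for ZNF423, whose groups overlapped, and ZNF521 had too few reads to enter a test.

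**Figure D2:**
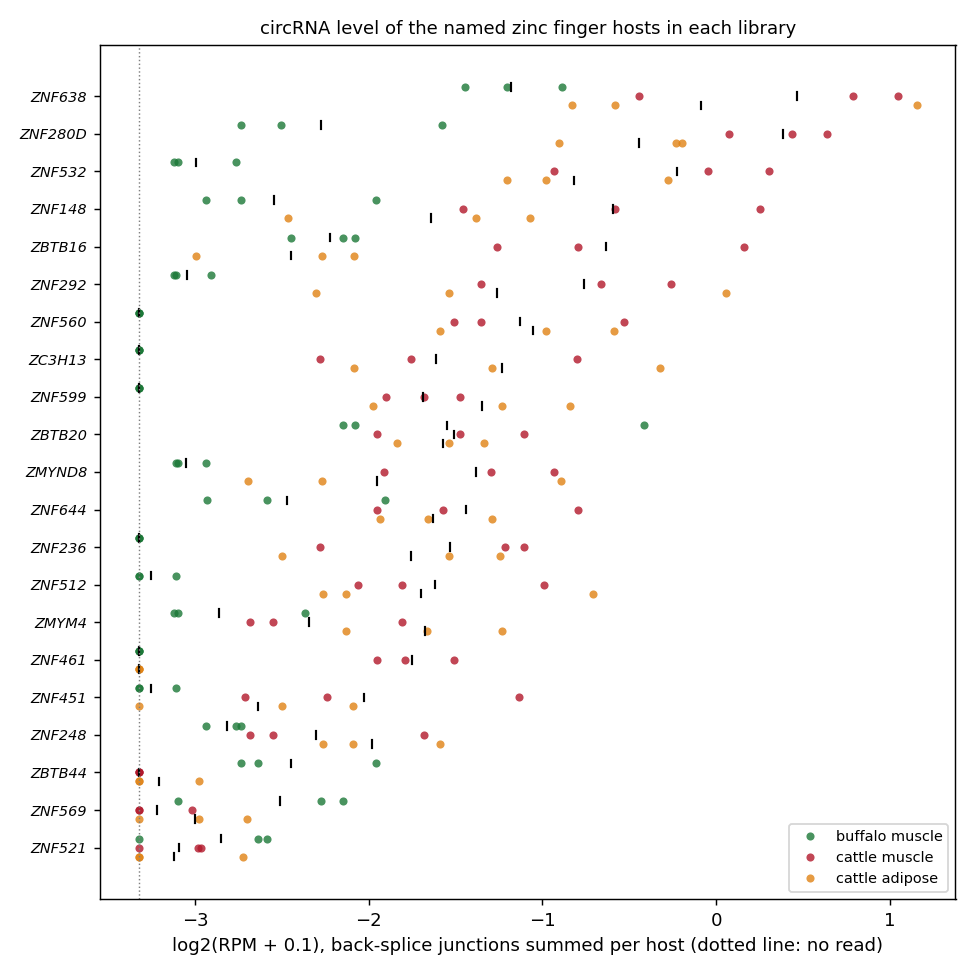
Level of the 21 named hosts in each library, as log2(RPM + 0.1) summed over the back-splice junctions of a host. Dots are libraries, black ticks are means of 3 libraries, and the dotted line marks libraries with no read; ZNF638 is highest, and ZBTB44, ZNF569 and ZNF521 have their highest mean in buffalo muscle.

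Cattle muscle was compared with cattle adipose tissue to find which zinc finger hosts differ between the tissues. Of the 2 members called, ZBTB16 was higher in muscle and ZNF461 had reads in muscle alone, and no member was called lower in muscle. ZNF461 entered the fit only through the muscle libraries, so its direction was set by the filter and its call is a description. The fit was limma on log2(RPM + 0.1) over 1837 hosts with at least 2 reads in at least 3 of the 6 libraries, and a call is an adjusted p of at most 0.05. Of the 94 hosts in the cattle table, 40 passed this filter, 2 of them (ZC3HC1 and ZNF461) through muscle alone and none through adipose tissue alone. The 2 called were ZBTB16 and ZNF461, where 7.62% of all hosts were called. In the direction of muscle the background was 5.82%, and in the direction of adipose tissue 1.80%. At an unadjusted p under 0.05 in limma, 3 members were higher and 1 lower in muscle, beside 11.4% and 6.15% of all hosts. With edgeR and DESeq2 on the recovered reads, each tool called 2 members higher and 0 lower. Over all hosts edgeR called 161, of which 75.2% were higher in muscle, and DESeq2 called 134, of which 76.1% were higher.

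ZBTB16 had 12, 43 and 17 reads in cattle muscle, with 5, 4 and 1 in cattle adipose tissue, that is 0.317, 1.02 and 0.476 RPM against 0.136, 0.108 and 0.0257 RPM. All muscle libraries lay above all adipose libraries. The difference was 1.82 ± 0.49 (SE) on the log2(RPM + 0.1) scale, with an adjusted p of 0.00891 in limma. Without muscle replicate 2 or adipose replicate 3 the adjusted p was 0.174 or 0.0902, and with the top junction of each host in place of the sum the difference was 0.97 with an adjusted p of 0.249. In buffalo muscle ZBTB16 had 9, 8 and 5 reads.

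ZNF461, a KRAB zinc finger gene, had 6, 8 and 9 reads in cattle muscle. It had none in any library of cattle adipose tissue or buffalo muscle. The muscle mean was 0.2 ± 0.0476 RPM. Against a floor of 3 reads over the adipose libraries this is at least 7.47-fold higher in muscle (at least 4.9-fold without adipose replicate 3), and the limma difference was 1.57 ± 0.44 (SE) on the log2(RPM + 0.1) scale with an adjusted p of 0.0141. With any 1 of the muscle libraries left out it could not be fitted, and without adipose replicate 1 or 3 the adjusted p was 0.0689 or 0.0651. ZNF385B, named after its values were seen, also had reads in cattle muscle alone, with 0, 10 and 10, and did not pass the filter of the fit.

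Groups that did not overlap in RPM were found for 5 of the 40 members with muscle above (ZBTB16, ZC3HC1, ZNF280D, ZNF461 and ZNF827), against 12.5% of all hosts in the fit, and for 1 with adipose tissue above (ZNF568), against 8.27%. ZC3HC1, ZNF827 and ZNF568 are outside the naming rule and are given because these counts are small. ZC3HC1, a protein of the nuclear pore, had 2, 3 and 2 reads in muscle and 1, 0 and 0 in adipose tissue. ZNF827, which recruits a histone deacetylase complex to telomeres, had 5, 6 and 8 against 0, 3 and 4. The KRAB gene ZNF568 had 2, 3 and 0 reads in muscle and 3, 10 and 12 in adipose tissue, and its difference of -1.13 ± 0.49 (SE) had an adjusted p of 0.172 in limma.

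Over the 40 fitted members the median difference was 0.13, with 25 above and 15 below 0, beside a median of 0.02 and 51.0% above 0 over all hosts. Scaling by junction reads in place of RPM moved the median of all hosts from 0.02 to -0.18. It left 16 of the 40 members above 0, with ZBTB16 and ZNF461 still called, and turned the share of calls over all hosts that are higher in muscle from 76.4% into 54.1%. ZNF148 was the only other member higher at an unadjusted p under 0.05, at 1.04 ± 0.49 (SE) with an adjusted p of 0.238 in limma.

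ZBTB44, ZNF521 and ZNF569 had too few cattle reads to be fitted. The remaining named hosts in the fit did not pass the test, and their intervals were wide. The 95% interval of the difference was -1.03 to 0.88 for ZNF560, -0.89 to 1.01 for ZBTB20, -0.49 to 1.49 for ZNF292, -0.36 to 1.55 for ZNF532 and -0.43 to 1.53 for ZNF638. Differences of about 1 on the log2 scale in these hosts are thus within the error of 3 libraries a group. The muscle fibre and adipocyte circRNAs moved between the same groups, with MYBPC1, NEB and RYR1 higher and PPARG and ACACA lower in muscle. MYBPC1, NEB and RYR1 had no adipose library with 2 reads and entered the fit through muscle alone, so their direction was set by the filter. In cattle muscle, PPARG had 0, 0 and 0.084 RPM and ACACA 0, 0.0473 and 0 RPM, so both entered mainly through adipose tissue. The 4 hosts among 6 fibroblast genes summed to 0 to 0.071 RPM in cattle muscle and 0.103 to 0.215 RPM in cattle adipose tissue. Sums of endothelial and of immune cell genes overlapped. The part of tissue makeup in the values of ZBTB16 and ZNF461 was not tested.

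**Figure D3:**
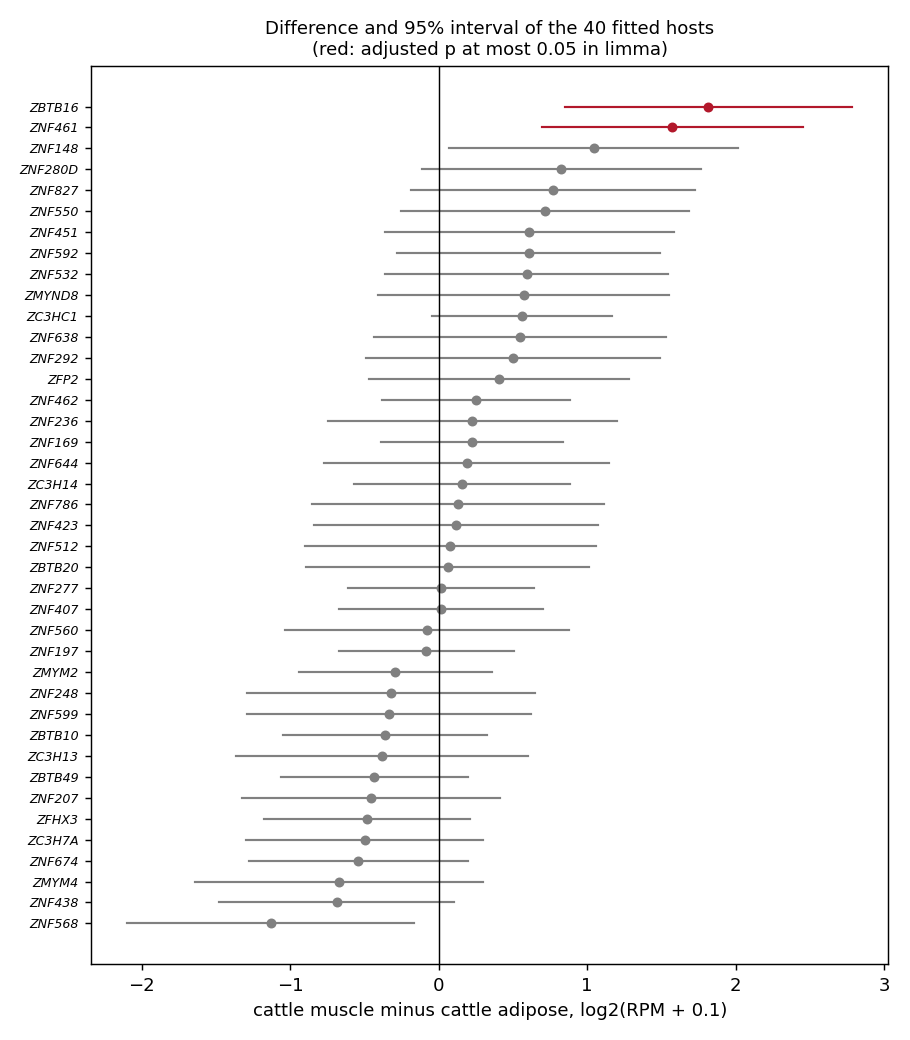
Difference between cattle muscle and cattle adipose tissue, in log2(RPM + 0.1), for the 40 zinc finger hosts in the fit, with 95% intervals from limma. Red marks ZBTB16 and ZNF461, with adjusted p of 0.00891 and 0.0141, of which ZNF461 passed the filter through muscle alone; the grey intervals are those of hosts that were not called.

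The same comparison was made for single junctions, since a host can shift between circRNAs without a change of its sum. Of 49 member junctions in the fit over 1917 junctions, 2 were called, both higher in muscle, where 4.80% of all junctions were called and 4.49% were called higher and 0.313% lower in muscle. At an unadjusted p under 0.05, 4 member junctions were higher and 1 lower, beside 14.4% and 5.58% of all junctions, and 28 of the 49 differences were above 0, beside 53.8%. The called junctions belong to ZNF280D and ZNF461, and that of ZNF461 passed the filter through muscle alone, as did 1 junction of ZBTB16 that was not called. The ZNF280D junction chr10:53739709-53743171 had 28, 35 and 38 reads in cattle muscle, beside 3, 14 and 5 in cattle adipose tissue. Its groups did not overlap, and the difference was 1.84 ± 0.47 (SE) on the log2(RPM + 0.1) scale, with an adjusted p of 0.0256 in limma. Without muscle replicate 2, muscle replicate 3 or adipose replicate 1 the adjusted p was 0.139, 0.166 or 0.0765, and with no filter on reads it was 0.389. The ZNF461 junction chr18:47126878-47127886 had 5, 8 and 9 reads in muscle and none in adipose tissue, so its direction was set by the filter. Its difference was 1.52 ± 0.40 (SE) with an adjusted p of 0.0308 in limma, which became 0.0765 or 0.0801 without adipose replicate 1 or 3, 0.142 with no filter and 0.0854 with a pseudocount of 1.

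Reads of ZNF280D were divided differently over its junctions in each group. The junction called held 101 of 141 host reads in cattle muscle (71.6%), 22 of 74 in cattle adipose tissue (29.7%) and 2 of 23 in buffalo muscle (8.7%). Adipose replicate 2 gave 14 of these 22 junction reads but only 28 of the 74 host reads, so the adipose share rests mostly on this library. Over the whole gene the difference was 0.83 ± 0.47 (SE) with an adjusted p of 0.371 in limma. All other junctions together had 8, 18 and 14 reads in cattle muscle, compared with 13, 14 and 25 in cattle adipose tissue, so they overlapped. The difference in share itself was not tested.

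At least 3 junctions with a common start or end were found in 17 of 98 hosts with a read, or 17.3%, against 23.6% of all hosts. Among hosts with at least 3 junctions the share was 51.5% (17 of 33) against 53.3%. All but 1 of the 5 junctions of ZBTB16 began at position 24920622 of chromosome 15, and these carried 95.5% of its reads in buffalo muscle and 97.2% in cattle muscle, against 100% in cattle adipose tissue. They ended at 24921979, 24973902, 25014617 and 25049863, with spans from 1.36 to 129 kb, and no end held most of the reads in cattle muscle. In ZNF638, 4 of 17 junctions shared the donor at position 13217682 of chromosome 11, with 83.3%, 75.8% and 72% of the host reads in the same order of groups. The leading one, chr11:13217682-13222564, had 19, 13 and 15 reads in buffalo muscle and 21, 46 and 38 in cattle muscle, with 2, 52 and 14 in cattle adipose tissue.

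In ZNF148, 59 of 73 cattle muscle reads, 23 of 28 adipose reads and 10 of 15 buffalo reads shared the donor at position 70372260 of chromosome 1. The longer circRNA from it, chr1:70372260-70394813, had 1, 7 and 2 reads in buffalo muscle and 7, 9 and 12 in cattle muscle, beside 1, 2 and 2 in cattle adipose tissue. The shorter one, chr1:70372260-70382491, had none in buffalo muscle and 1, 11 and 18 reads in cattle muscle, against 2, 9 and 3 in cattle adipose tissue. All 4 junctions of ZNF236 shared the acceptor at position 2656106 of chromosome 24. With at least 5 reads in both tissues and more than 1 junction, 12 of 22 members had the same leading junction in cattle muscle and adipose tissue, against 60.8% of all such hosts.

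**Figure D4:**
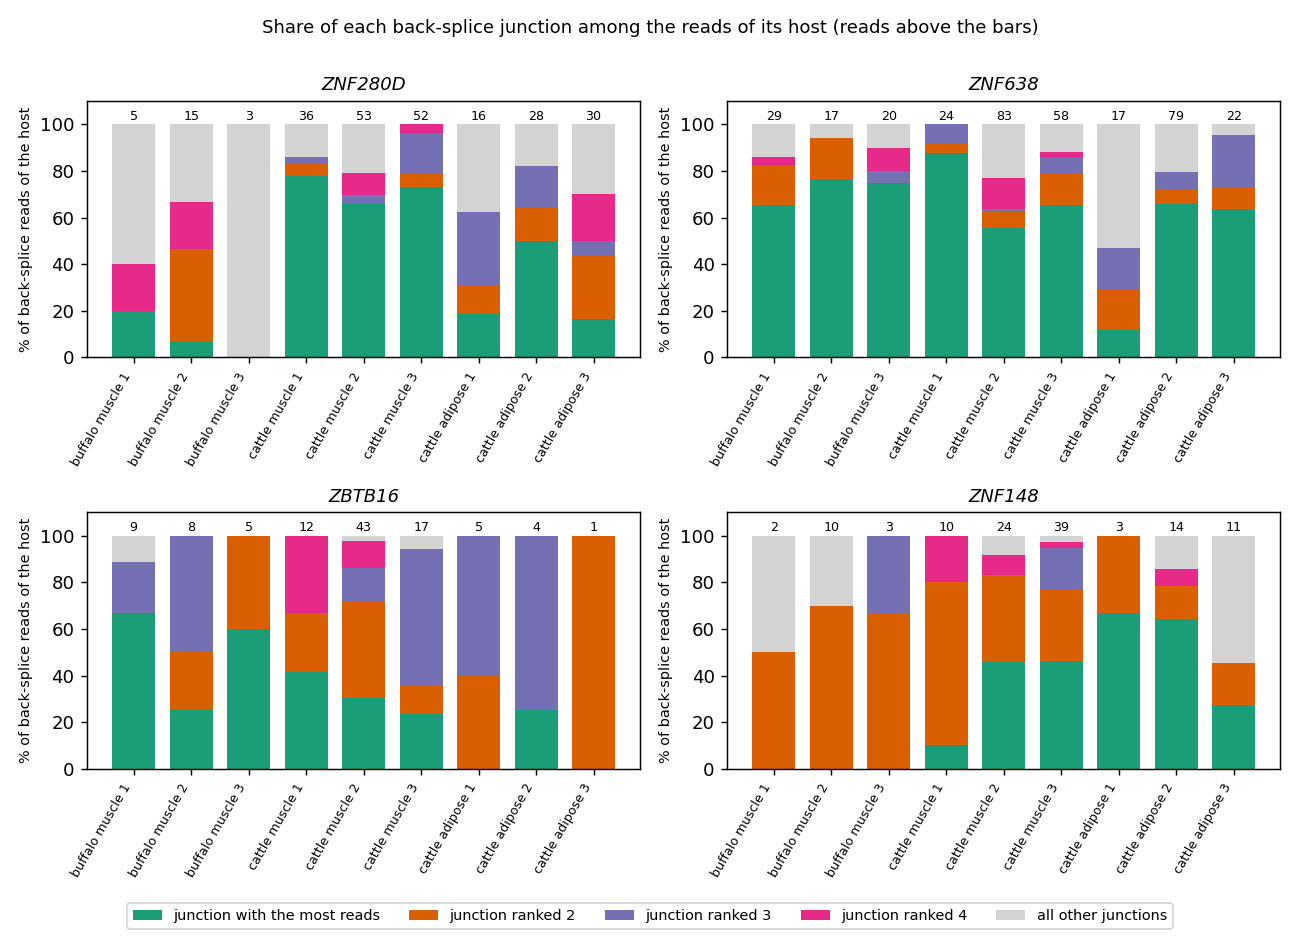
Percent of the back-splice reads of ZNF280D, ZNF638, ZBTB16 and ZNF148 on each junction, for each library, with the number of reads of the host above each bar. Junctions are ranked by reads over the 9 libraries. Pooled over the libraries of a group, the leading ZNF280D junction holds 71.6% of the reads of cattle muscle and 29.7% of those of cattle adipose tissue. Most adipose reads on this junction are from replicate 2, and several bars rest on 5 reads or fewer.

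Muscle of the 2 species was set side by side without a test, because the tables were normalized separately. Zinc finger circRNAs were in part made from identical junctions: 48 of the 181 member junctions with a read in cattle muscle also had a read in buffalo muscle, which is 26.5%, against 18.6% of all junctions. Seen from buffalo, these are 48 of 74, or 64.9%, against 47.1%. With at least 2 reads required in each species, the shares were 22% against 16.2% from cattle and 65.9% against 52.7% from buffalo. Among junctions with at least 5 reads in cattle muscle, a limit chosen after seeing the data, the share with a buffalo read was 42.4% (25 of 59) against 45.5%. The 48 junctions lie in 27 hosts. In 7 junctions, those given above for ZBTB20, ZNF292 and ZNF638, the longer one of ZNF148, and 1 each of ZNF248, ZNF532 and ZNF644, every one of the 9 libraries had a read.

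Per RPM, the libraries of cattle muscle all lay above those of buffalo muscle in 21 of 29 members with at least 2 reads in at least 3 of the 6 libraries, against 69.8% of all hosts, and buffalo muscle lay above in 1 (ZBTB44), against 0.984%. Per 10000 junction reads, which takes out the lower junction total of buffalo muscle, the muscle fibre circRNAs given above took a larger share in buffalo muscle, and their part in the members' shares was not tested. On this scale cattle muscle lay above in 11 members (ZC3H13, ZC3HC1, ZNF236, ZNF292, ZNF461, ZNF512, ZNF532, ZNF550, ZNF560, ZNF599 and ZNF786), against 26.2% of all hosts. Buffalo muscle lay above in 2, ZBTB20 and ZBTB44, against 10.3%. Hosts without 2 reads in any buffalo library, ZNF512 among them, passed this filter through cattle muscle alone. ZBTB44 passed it through buffalo muscle alone. Their directions were set by the filter, so these counts describe the members and support nothing about them. ZNF550 and ZNF786 are KRAB genes outside the naming rule, listed to complete the count.

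ZNF560 showed the widest bound in RPM, with at least 24.5-fold more in cattle than in buffalo muscle, and at least 3.7-fold more per junction read. Per junction read the widest bound was that of ZBTB44, in the other direction, given below. For ZC3H13 and ZNF236 the bounds were at least 16.9-fold and at least 2.55-fold. For ZNF599 they were at least 13.6-fold and at least 2.05-fold, and for ZNF461 at least 12.5-fold and at least 1.89-fold. Each bound is set against a floor of 3 reads over the 3 buffalo libraries and covers counting error only. Without cattle muscle replicate 2, which held 20 of the 31 reads of ZC3H13, its bounds were at least 9.45-fold and at least 1.56-fold. The floor itself rises with fewer libraries, so that without buffalo replicate 1 the RPM bound of ZNF560 was at least 16-fold, and without buffalo replicate 2 its bound per junction read was at least 2.27-fold; the other bounds against buffalo muscle moved in the same ratio. In the other direction ZBTB44 had at least 3.46-fold more RPM in buffalo muscle and at least 23-fold more per junction read. These were at least 2.15-fold and at least 15.4-fold without buffalo replicate 2, and at least 2.2-fold and at least 13.3-fold without cattle muscle replicate 2.

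ZBTB20 held 39.1 ± 41.7 of 10000 junction reads in buffalo muscle and 4.62 ± 1.14 in cattle muscle (SD, n = 3). Buffalo replicates 1 and 2, at 17 and 13.1, were also above every cattle muscle library on this scale. In RPM these 2 libraries, at 0.137 and 0.126, lay below every cattle muscle library, of which the lowest was at 0.159. Per 10000 junction reads, ZNF569 stood at 9.51 ± 6.3 and 0.123 ± 0.213, and ZNF521 at 5.5 ± 4.81 and 0.37 ± 0.333. On this scale only ZNF521, in which 1 buffalo library had no read, showed overlap. In RPM the groups of ZNF569 overlapped too, with buffalo replicate 3 at 0.0167 and cattle muscle replicate 2 at 0.0237. ZNF569 and ZNF521 are not among the 29 members, since only 2 libraries of each had at least 2 reads. ZBTB16 stood at 13.7 ± 2.97 and 10.5 ± 4.66 per 10000 junction reads, where its groups overlapped. In RPM its cattle muscle libraries all lay above, with means of 0.115 in buffalo and 0.604 in cattle muscle.

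**Figure D5:**
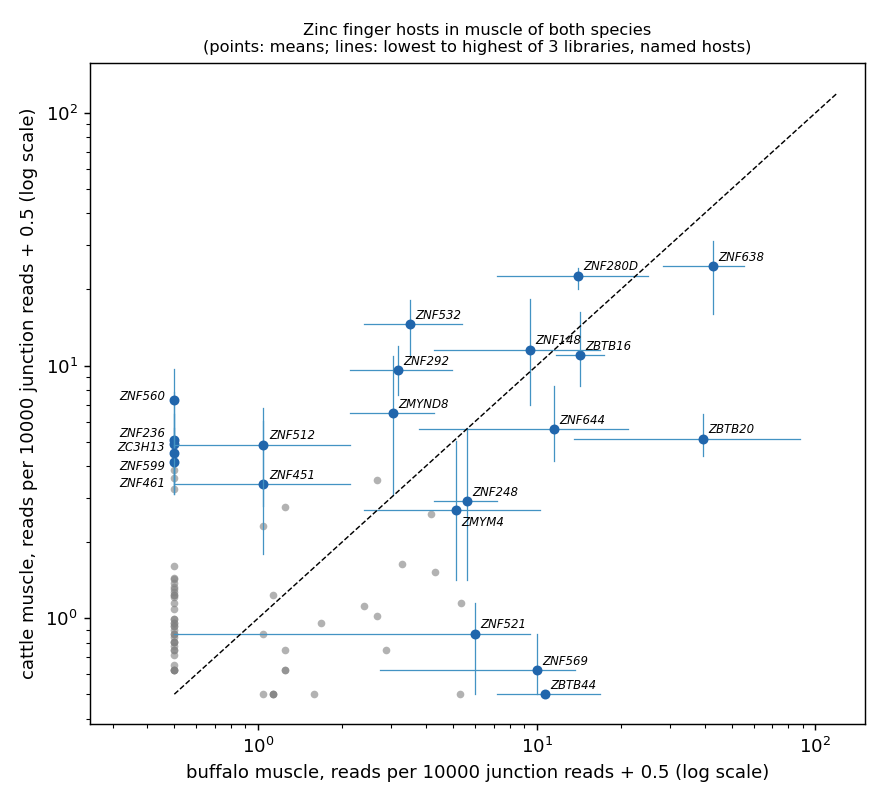
Reads per 10000 junction reads in buffalo muscle (x axis) and cattle muscle (y axis) for zinc finger hosts with a read in either, on log scales after adding 0.5. Blue points are means of the named hosts with lines from the lowest to the highest of 3 libraries, grey points are other members, and the dashed line marks equal values; ZBTB20, ZBTB44, ZNF521 and ZNF569 lie far below it, and ZNF560, ZC3H13, ZNF236, ZNF599 and ZNF461 stand at the left edge with no buffalo read.

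In 10 members with at least 5 reads in muscle of both species and more than 1 junction, the leading junction was the same in 5, against 56.9% of all such hosts. It was shared in ZBTB20, ZNF638 and ZNF644 and in ZNF423 and ZNF462, the last being outside the naming rule. ZNF280D was among those that differed: its leading junction in buffalo muscle was chr10:53755723-53765890, with 0, 6 and 0 reads, all from a single library.

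Some features of the junctions were not used by the rule. Of the 259 member junctions in cattle, 20.8% were listed as joining exon and intron sequence, beside 8.26% of all junctions with a host, and these held 22.6% of member reads beside 11.5%. In buffalo muscle such junctions were 17.6% of member junctions beside 8.30%, but held 15% of member reads beside 20.2%, so the order for reads was the opposite. The median span in cattle was 8.33 kb beside 10.3 kb. Chromosome 18, which holds clusters of KRAB zinc finger genes, carried 20 of 94 cattle member hosts (21.3%) beside 2.8% of all hosts. The rule picks such genes by symbol, so this share is tied to the rule and says nothing about circRNA formation. These shares are descriptions and were not tested.

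Host mRNAs of buffalo muscle were used, as FPKM (fragments scaled by transcript length and library size). They were summed over only those transcripts that the circRNA annotation pairs with a host, a single transcript for most members. Other transcripts of a gene are not counted, so the values can fall short of its mRNA. NEB, with a circRNA mean of 11 RPM in buffalo muscle, had 0 FPKM in each of these libraries on this measure. All 100 members that could be matched had a mean above 0, and 98 had at least 1 FPKM. The median was 11.3 FPKM in the 38 members with a circRNA read in buffalo muscle and 4.61 FPKM in the 62 without, beside 12.1 FPKM in all 2253 hosts with reads. ZNF106, a muscle-expressed RNA-binding protein named after its values were seen, was highest, at 415 FPKM, and had 1 circRNA read. ZBTB16 followed with 233, 242 and 144 FPKM, then ZBTB44 with 95.3, 84.8 and 85.5 FPKM. ZBTB20 stood at 42.7, 32.2 and 46 FPKM, so replicate 3, with 39 of its 56 circRNA reads, was close to replicate 1 in mRNA.

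Hosts without a buffalo circRNA read still had mRNA there. ZC3H13 had 10.6 ± 1.14 FPKM, ZNF236 had 5.47 ± 0.368, ZNF560 had 2.75 ± 0.225, ZNF461 had 2.64 ± 0.277 and ZNF599 had 2.59 ± 0.621 (SD, n = 3). Their mRNAs were thus listed in all 3 buffalo libraries, at levels below that of ZNF638, with 39 ± 0.958 FPKM. Across the 38 members, Spearman's rho between mean FPKM and mean circRNA RPM was 0.361, beside 0.174 across 2253 hosts. These are descriptions across genes of the same 3 libraries, and genes are not independent replicates.

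Zinc finger proteins whose symbols lack the prefixes were counted beside the members. Of 79 further C2H2 genes 27 were circRNA hosts and 8 were in the fit, with a median difference of -0.31 between cattle muscle and adipose tissue. In limma, edgeR and DESeq2, 0 of the 8 were called, and 0 had an unadjusted p under 0.05. BNC2, a C2H2 protein of mesenchymal cells named after its values were seen, had a mean above that of ZNF638 in each group, with 0.788 ± 0.447 RPM in buffalo muscle and 3.44 ± 0.865 in cattle muscle (SD, n = 3). In cattle adipose tissue its libraries were at 2.69, 10.3 and 2.86 RPM, so replicate 2 alone lay above the highest muscle library, at 4.28 RPM. Of 22 further CCCH genes 8 were hosts and 3 were in the fit (MBNL1, MBNL2 and RBM26), with 0 called by any of the tools. MBNL2, a splicing factor, had an unadjusted p under 0.05 and a difference of -1.003, with an adjusted p of 0.259 in limma.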

How the data were processed

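Per the labels and the methods of the study, RNA was extracted with TRIzol, and 2 µg went into libraries of a TruSeq RNA v2 kit, which in its standard form enriches polyadenylated RNA and does not mark strand. The authors trimmed the reads (Trim Galore) and mapped them by STAR, for buffalo as for cattle on UMD3.1, the build of all coordinates here. The circRNA caller is not given in the sources used here. As deposited, circRNA values are RPM for each back-splice junction and mRNA values are FPKM from Cufflinks 2.2.1 and Cuffdiff for each transcript. Not used here were 9 columns of other samples and the lncRNA table.

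From RPM, 100% of values came out as whole reads within 0.01 reads. Junction RPM was summed per host symbol, and 1205 cattle and 634 buffalo rows without a symbol were left out. Cattle tissues were compared with limma 3.58.1 (R 4.3.3) with a variance trend on log2(RPM + 0.1), which understates changes of low hosts, with Benjamini-Hochberg adjustment over all hosts or junctions at 0.05. On the recovered reads, edgeR 4.0.16 called 161 hosts and 163 junctions, and DESeq2 1.42.0 called 134 and 129. Other settings tried were leaving out a library, blocking on the replicate number, a pseudocount of 1, a read minimum of 5 or none, no trend, scaling per junction read, the top junction of each host and a log2 difference of at least 1. On simulated data with 200 hosts changed 4-fold, drawn 3 times, limma recovered 37.7% of the changed hosts that passed the filter, with 3.72% false calls, and edgeR 47.7% with 2.24%. For junctions limma recovered 18.7% on the same basis with 4.81% false calls. The simulation gave every host or junction the same dispersion (spread beyond counting error) and drew the direction of each change at random. Its rates therefore need not hold for the real libraries.

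The members and lists were chosen with earlier results of these data known. Named hosts are the 10 highest in each group, those called, up to 10 with a junction in both species, and the 5 with the most junctions. Others are said to be named after their values were seen. The 95% intervals are those of limma and rest on the spread between libraries, whereas floors cover counting error only. Figures were drawn with matplotlib 3.10.9.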

Additional observations from a re-analysis of the deposited data

How the results depend on the processing

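Most junctions rest on few reads, which limits every value here. Over all junctions, 92 calls became 49 with no filter, 163 with edgeR and 214 with the replicate number as a block, and 22 to 120 with a library left out. The calls of zinc finger junctions went from 2 to 1 with a pseudocount of 1, 0 with no filter (edgeR 3, DESeq2 2), 4 with the replicate block and 0 to 3 with a library left out. Over all hosts, 140 calls became 85 with the top junction of each host and 34 to 132 with a library left out, and the 2 zinc finger hosts became 0 to 2. The replicate block gave 155 hosts and kept 2 zinc finger hosts. Pairing was looked at in deviations of log2(RPM + 0.1) from the mean of each host in its tissue, not in the library values themselves. In these deviations, muscle and adipose libraries of the same number correlated at 0.0761, 0.0757 and 0.0103 over 1837 hosts. Each was best with its own number, which is a weak hint from the data and not the design, since deviations from a common mean are tied to each other.

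ZBTB16 and ZNF461 were called in every setting that keeps all libraries, except that with the top junction of each host ZBTB16 fell to 0.97 (adjusted p = 0.249 in limma) while ZNF280D was called at 1.84 (adjusted p = 0.016). Adjusted p ranged from 0.000781 to 0.249 for ZBTB16 and from 0.00267 to 0.0689 for ZNF461. With each library left out, the differences ranged from 1.42 to 2.13 for ZBTB16. With no filter, the ZNF280D and ZNF461 junctions had adjusted p of 0.389 and 0.142, and with a pseudocount of 1 the latter had 0.0854 in limma.

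Small differences that were not called changed sign. Scaled per junction read, ZBTB20 was at -0.25, ZNF236 at -0.068, ZNF512 at -0.16 and ZNF644 at -0.14. With the top junction of each host, ZNF236 was at -0.24, ZNF512 at -0.29 and ZNF644 at -0.26. With a library left out, the differences ranged from -0.14 to 0.28 for ZBTB20, -0.81 to 0.074 for ZC3H13, -0.14 to 0.60 for ZNF236, -0.0196 to 1.16 for ZNF292, -0.23 to 0.57 for ZNF512, -0.38 to 0.15 for ZNF560 and -0.13 to 0.44 for ZNF644. The cause was not tested.

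Of the 48 member junctions found in muscle of both species, 27 had at least 2 reads in each, 25 had at least 5 reads in cattle muscle, and 37 to 45 were left without a library. The shares of junction reads do not depend on the filter, the pseudocount or the tool, so these settings could not test them. With a library left out, a mean of the others lies within the range of the libraries by construction. The 100 members with mRNA became 98 at a mean of at least 1 FPKM and were 100 with each library left out.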
